A study of Mus musculus with 4 samples.

Results

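The RNAs of 10 receptor tyrosine kinases of fibroblasts were compared between the pseudopodia and the cell bodies of NIH/3T3 cells, an established mouse fibroblast line. The receptors were Pdgfra, Pdgfrb, Fgfr1, Igf1r, Insr, Met, Axl, Ephb4, Epha2 and Ror1, a set named with earlier results of these data known. Every probe set whose platform annotation gave exactly 1 gene symbol among these was taken, which came to 25 of 45101 probe sets and 10 of 18193 genes named in this way. All cells of both groups were treated alike: they were serum-starved overnight, spread for 2 h on a fibronectin-coated porous membrane, and exposed to lysophosphatidic acid (LPA, a phospholipid that acts on G protein-coupled receptors) from below at 150 ng/ml for 1 h. For every array the labels also give 10% calf serum, fixation in 0.3% formaldehyde for 10 min, and its reversal at 70 °C for 45 min. Pseudopodia, the protrusions that had passed through the pores, formed 1 group, and the cell bodies left on the upper face formed the other, each with 2 arrays. No genotype differed between the groups, and cells without LPA were not analysed here. All results come from 1 immortalised line, and the labels call the samples independent without saying how the cultures were kept apart, so the p-values cover only the spread of these arrays, which may be technical.

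A receptor tyrosine kinase is a protein that crosses the plasma membrane once, binds a growth factor, an ephrin or another ligand outside the cell, and phosphorylates tyrosines on itself and on adaptor proteins inside it. In fibroblasts the receptors for platelet-derived growth factor (PDGF), fibroblast growth factor (FGF) and insulin-like growth factors drive proliferation, survival and directed migration. Like those of other membrane proteins, their RNAs carry the code for a signal sequence and are translated at the endoplasmic reticulum, from where the protein travels to the cell surface. The receptor protein and its RNA need not lie in the same place, and only RNA was measured.

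Most of the 10 receptors had less RNA signal in pseudopodia than in cell bodies, relative to the total signal of each fraction. In bulk fractions, a smaller number of protrusions holding an RNA and less of it in each cannot be told apart. Axl, Ephb4, Pdgfra and Fgfr1 fell, with log2 differences of -1.49, -1.52, -0.92 and -0.89, and no receptor passed in the other direction. Epha2 and Ror1 had values of a like size but missed the threshold, while Igf1r, Insr, Met and the brightest probe set of Pdgfrb had smaller differences, from -0.34 to 0.46, that did not pass. Of the 10, 8 had negative differences, against 48.8% of the 10962 genes tested, and their median was -0.88, against 0.01. These are differences of log2(signal + 32), pseudopodia minus cell body, on signals scaled to a trimmed mean of 500. They carry the SE of a limma fit with n = 2 arrays per group, and they understate the change of dim probe sets. Each gene stood by its brightest probe set, and is called at an adjusted p below 0.05 over all genes.

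The count of 4 called lower among 10 compares with 3.44% of all genes called lower and 1.82% called higher. Both pseudopodia arrays lay below both cell body arrays in 7 of the 10 receptors and in 25.2% of all genes. They lay above in 1 receptor, Igf1r, and in 27.4% of all genes. At least 1.5-fold lower in each of the 4 array pairs were 5 receptors (Pdgfra, Fgfr1, Axl, Ephb4 and Ror1) and 5.38% of all genes. With 2 arrays on each side the smallest p of an exact permutation test is 0.333, so none was run on single genes. The calls rest on the spread that limma shares between genes: without its variance trend, 0 receptors and 0 genes passed, although 6 of the 10 receptors and 11.1% of all genes were lower at an unadjusted p under 0.05. Leaving out either cell body array also ended every call.

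**Figure D1:**
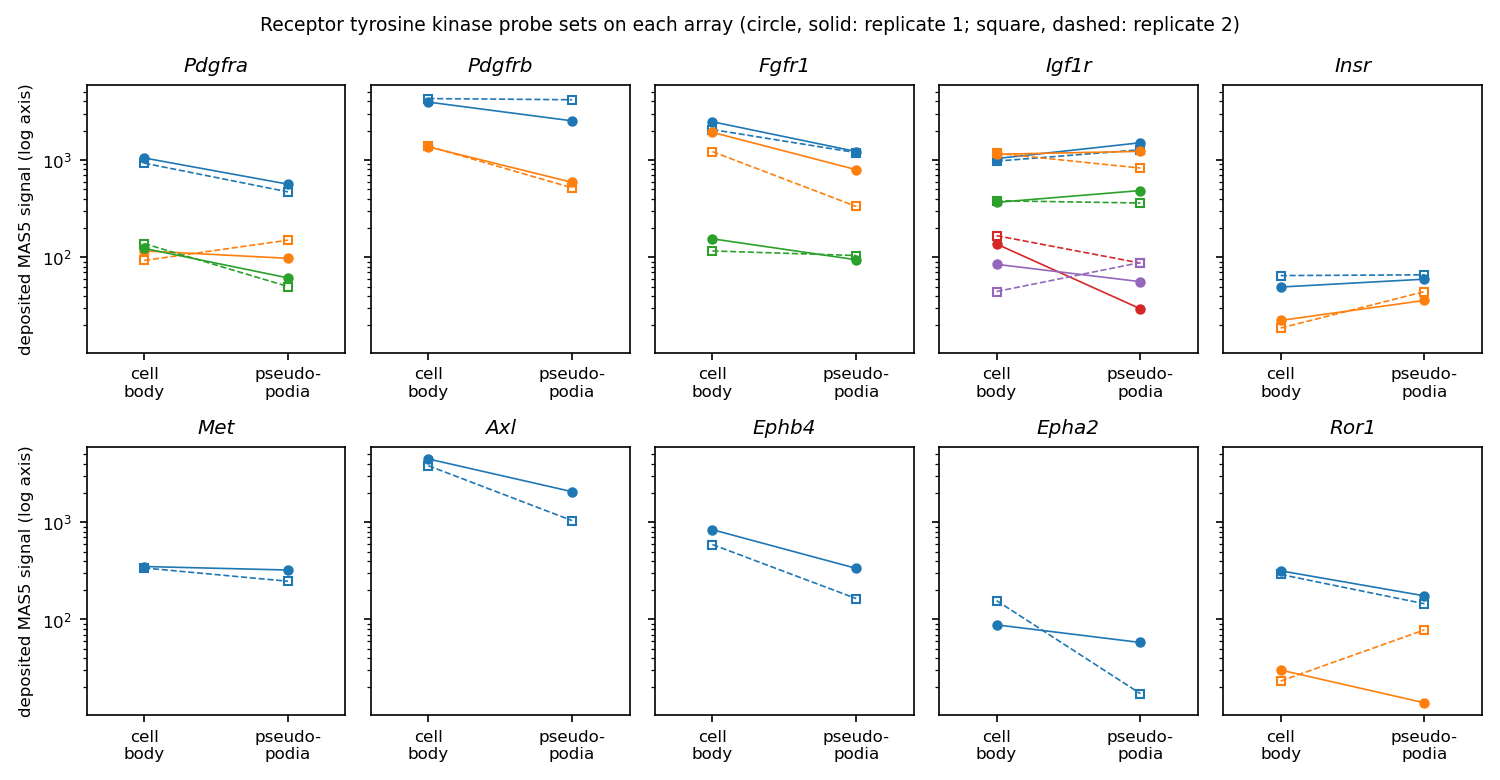
Deposited MAS5 signal (log axis) of each probe set that passed the filter, for the 10 receptors, in cell bodies and pseudopodia. Each colour is a probe set, and lines join arrays of the same replicate number (circles and solid lines for replicate 1, squares and dashed lines for replicate 2). The lines of Axl and Ephb4 fall in both replicates, whereas those of the brightest Igf1r probe set run from 1035.7 and 973.6 up to 1504.8 and 1274.4.

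The deposited signals had the same trimmed mean on every array, which makes their scale alike, and their medians lay between 29.8 and 33.3. Of 7 RNAs known from fibroblast protrusions, a list that is not independent of these samples, 6 were higher in pseudopodia. Of 2 nuclear RNAs, Neat1 was lower (-2.17 ± 0.21, adjusted p = 0.00891), and Malat1 did not pass (-1.39 ± 0.48, adjusted p = 0.130, or 0.000727 with the replicate number as a block). Of 10 fibroblast markers 7 passed the filter, and none was called by its brightest probe set. On these probe sets the differences ran from -0.41 in Col1a1 to 0.27 in Vim. The collagen genes Col1a1, Col3a1 and Col1a2 (-0.41, -0.37 and -0.31) had pseudopodia below cell bodies without overlap and passed with the block (adjusted p = 0.0141, 0.0245 and 0.0468). Dimmer probe sets of these genes disagreed in size and sign. Col1a2 1423110_at was called lower over probe sets (-0.98 ± 0.15, adjusted p = 0.0245). Not called were Col1a2 1446326_at at -1.85, Col3a1 1427884_at at -0.77 and Col1a1 1455494_at at 0.41. Thy1, Postn and Lum did not pass the filter, with signals no higher than 56.3. Of the markers of other cell types, 3 of 7 for epithelium, 1 of 6 for endothelium, 3 of 6 for leukocytes and 2 of 6 for muscle and adipocytes passed the filter, and none was called. Summed over all probe sets of a list, the signals of the epithelial markers were 1310 and 1382 in cell bodies against 1053 and 1500 in pseudopodia. Those of the endothelial markers were 55.1 and 102.8 against 78.9 and 140.5, those of the leukocyte markers 213.7 and 357.6 against 209.4 and 329.0, and those of muscle and adipocytes 348.2 and 427.1 against 399.2 and 541.4. No marker was at 0. The brightest of other cell types were Krt8 (354.5 to 442.4), Acta1 (179.4 to 352.7) and Epcam (154.9 to 333.5 on 1447899_x_at). On 1416579_a_at Epcam read 1.5 to 22.2. Des, Cdh1, Laptm5, Kdr, Cd68 and Adgre1 also passed the filter, with highest signals of 99.8, 98.4, 76.4, 70.6, 69.0 and 50.7. The others, Cdh5, Ptprc and Adipoq among them, lay below the filter, with signals no higher than 46.4 (Krt18). The ratio of the 3′ to the 5′ beta-actin control, a sign of RNA integrity, was 1.55 and 1.89 in cell bodies against 1.77 and 3.41 in pseudopodia of replicates 1 and 2. Its part, and that of the markers, in the results that follow was not tested.

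Of the 25 probe sets, 21 passed the filter on dim signals (a mean no lower than the array-wide median), with at least 1 for each receptor. A probe set of Insr and a probe set of Ror1 had a cell body mean below the filter's level and passed through their pseudopodia signals. Over probe sets, 3 were called lower (Pdgfrb 1417148_at, Fgfr1 1424050_s_at and Axl 1423586_at) and 0 higher, where 3.32% of all probe sets were called lower and 1.08% higher. Of the 21, 14 had negative differences and 11 had an unadjusted p under 0.05, against 52.3% and 22.0% of all probe sets. Signal per probe set depends on its probes, so levels are not compared between receptors.

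**Figure D2:**
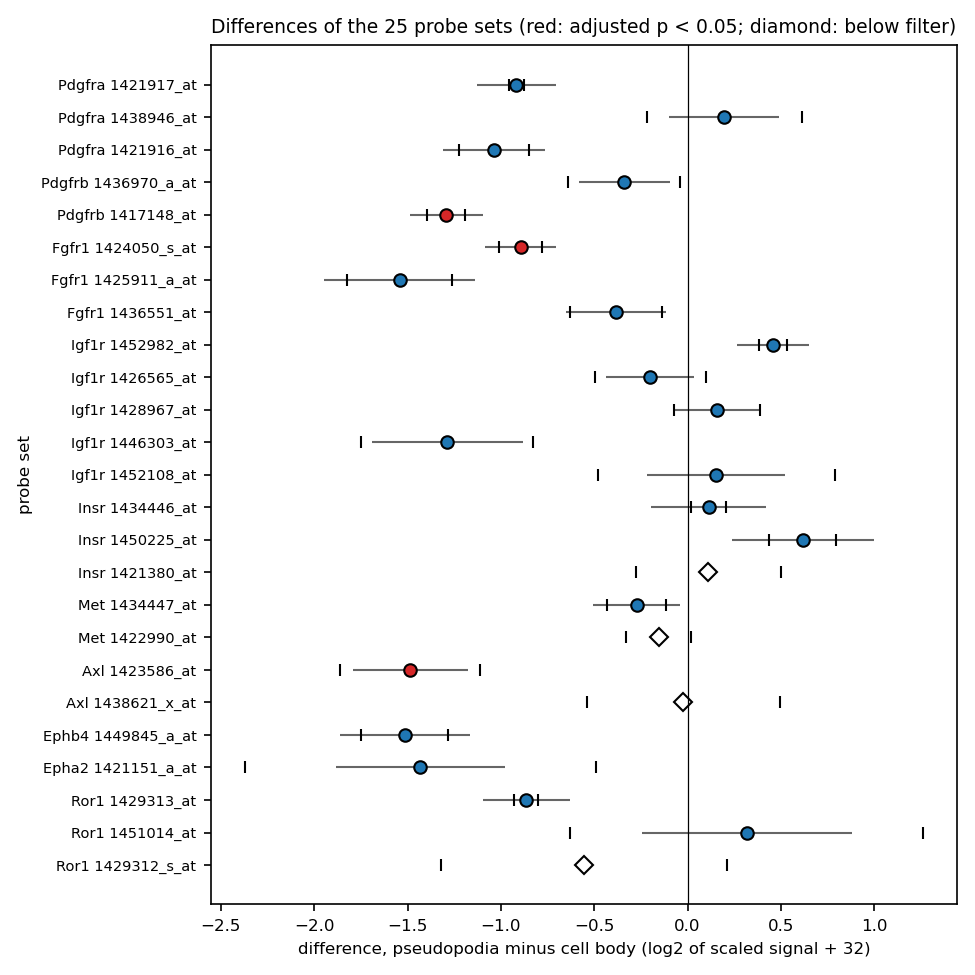
Difference of each of the 25 probe sets, pseudopodia minus cell body, in log2 of the scaled signal plus 32. Circles with bars are the limma estimate ± SE for the 21 that passed the filter (red where the adjusted p over probe sets is below 0.05), diamonds are the 4 dim ones, and ticks mark the replicate 1 and replicate 2 pairs. The 3 red circles lie between -1.49 and -0.89.

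Pdgfra and Pdgfrb are the receptors for the PDGF family, strong mitogens and attractants of fibroblasts. The brightest Pdgfra probe set, 1421917_at, gave 1049.9 and 928.9 in cell bodies against 564.2 and 470.3 in pseudopodia, in deposited signal. Both pseudopodia arrays lay well below both cell body arrays, with a difference of -0.92 ± 0.20 (adjusted p = 0.0434 over genes). The dimmer 1421916_at, designed on the same GenBank entry, read 123.4 and 138.2 against 61.3 and 50. It differed by -1.04 ± 0.27, a like size, and did not pass over probe sets (adjusted p = 0.0756, or 0.0219 with the block). A probe set designed on another entry, 1438946_at, read 116.2 and 92.7 against 97.5 and 149.9. Its fractions overlapped, at 0.19 ± 0.29, so the Pdgfra probe sets did not all point one way.

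Pdgfrb had probe sets that differed in size. On 1417148_at its signals were 1365.3 and 1385.9 in cell bodies against 589.5 and 517.7 in pseudopodia. That is a difference of -1.29 ± 0.20 (adjusted p = 0.0242 over probe sets), with no overlap and nearly equal cell body arrays. On the brighter 1436970_a_at the signals were 3943.3 and 4285.9 in cell bodies against 2528.2 and 4165.4 in pseudopodia. Here the replicate 1 pair was apart and the replicate 2 pair was not (-0.64 and -0.04), and the difference of -0.34 ± 0.24 did not pass (adjusted p = 0.453 over genes). The suffix _a marks a probe set that recognises several transcripts of a gene. The position of the probes in the transcripts was not analysed here, and the difference between the probe sets was not tested.

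Fgfr1, a receptor for FGFs, had negative differences on all 3 of its probe sets, of which 1 passed. The brightest, 1424050_s_at, read 2475.0 and 2056.5 in cell bodies against 1222.3 and 1190.6 in pseudopodia. The fractions were well apart, at -0.89 ± 0.19 (adjusted p = 0.0372 over genes and 0.0453 over probe sets). The suffix _s marks probes shared by several transcripts. On 1425911_a_at the signals were 1926.7 and 1219.3 against 795.3 and 332.9, and the difference was -1.54 ± 0.40. It was larger but more variable, with pseudopodia replicate 2 much the lowest, and did not pass (adjusted p = 0.0742 over probe sets, or 4.66e-05 with the block). The dim 1436551_at read 154.7 and 116.1 against 94.2 and 104.1, at -0.38 ± 0.27.

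Axl binds Gas6 and belongs to the TAM receptors, which act in the survival of cells and the uptake of dead ones. Its signals on 1423586_at were 4479.4 and 3817.7 in cell bodies against 2063.8 and 1040.4 in pseudopodia. Cell body over pseudopodia, the ratio was 2.17 in replicate 1 and 3.67 in replicate 2, with no overlap. The difference of -1.49 ± 0.30 passed over genes (adjusted p = 0.0340) and over probe sets (adjusted p = 0.0437). Only 0.666% of all genes had a lower difference. A second Axl probe set, 1438621_x_at, did not reach 15 on any array and says nothing about direction. Tyro3, another TAM receptor, was also lower (-1.01 ± 0.23, adjusted p = 0.0438 over genes, but 0.0594 over probe sets), and Mertk lay below the filter, with signals up to 29.4.

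Ephb4 and Epha2 are receptors for ephrins, ligands held on the surface of neighbouring cells that steer adhesion and repulsion. Each had 1 probe set. Ephb4 read 839.0 and 590.0 in cell bodies against 335.5 and 164.2 in pseudopodia, which is 2.50 and 3.59 times as high in the cell bodies of the 2 replicates. Both pseudopodia arrays were clearly lower, and the difference of -1.52 ± 0.33, the largest in size among the brightest probe sets as scaled here (after quantile normalization Axl was larger, at -1.54 against -1.40), passed over genes (adjusted p = 0.0406) but not over probe sets (adjusted p = 0.0549, or 0.000124 with the block). Epha2 was dim, with 88.1 and 156.3 in cell bodies against 58.0 and 17.3 in pseudopodia. The fractions did not overlap, but the pairs were far apart, at -0.49 in replicate 1 and -2.37 in replicate 2. Its difference of -1.43 ± 0.44 did not pass (adjusted p = 0.103 over genes).

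Ror1 is a receptor for Wnt5a, with a kinase domain of little or no activity. Its brightest probe set, 1429313_at, read 316.5 and 290.4 in cell bodies against 175.0 and 145.1 in pseudopodia. The arrays of each fraction lay close together and the fractions apart, at -0.86 ± 0.22, short of the threshold (adjusted p = 0.0590 over genes). The dim 1451014_at read 30.2 and 23.3 against 13.9 and 78.2, and its pairs had opposite signs.

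Igf1r, the receptor for insulin-like growth factors, and Insr, the insulin receptor, are close relatives. Neither was called on any probe set as scaled here, over all 4 arrays and without the block. The brightest Igf1r probe set, 1452982_at, read 1035.7 and 973.6 in cell bodies against 1504.8 and 1274.4 in pseudopodia. Both pseudopodia arrays were above both cell body arrays, at 0.46 ± 0.19, which did not pass (adjusted p = 0.208 over genes). The next brightest, 1426565_at, read 1145.8 and 1173.7 against 1227.2 and 826.2, and overlapped (-0.20 ± 0.24). The others stood at 0.16 ± 0.23, at 0.15 ± 0.37 and, on 1446303_at, at -1.29 ± 0.41 (adjusted p = 0.118 over probe sets). This last one passed with the block (adjusted p = 0.00756), on the hybridization controls (adjusted p = 0.0420) and without pseudopodia replicate 2 (adjusted p = 0.000582). Its signals were 136.8 and 166.8 in cell bodies against 29.5 and 87.1 in pseudopodia, so the Igf1r probe sets disagreed in sign.

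Insr was dim throughout. Its brightest probe set, 1434446_at, read 49.4 and 64.8 in cell bodies against 59.5 and 65.9 in pseudopodia. The fractions overlapped, at 0.11 ± 0.31 (adjusted p = 0.875 over genes). A dimmer one, 1450225_at, read 22.4 and 18.7 against 36.0 and 44.3, at 0.62 ± 0.38.

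Met, the receptor for hepatocyte growth factor, read 350.7 and 338.9 in cell bodies against 322.7 and 247.4 in pseudopodia on 1434447_at. Pseudopodia replicate 1 was nearly level with the cell bodies, and the difference of -0.27 ± 0.22 did not pass (adjusted p = 0.514 over genes). Its other probe set stayed at or below 10.3. That Met, Igf1r or Insr missed the threshold does not show that their RNA was evenly spread. In simulated arrays of this design, 1.7% of the changes set to 1 log2 unit were called, and 47.9% of those set to 2. That simulation ran over probe sets and changed far fewer of them than the 990 called here, which makes its threshold stricter. These shares are therefore not the power of the test over genes.

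**Figure D3:**
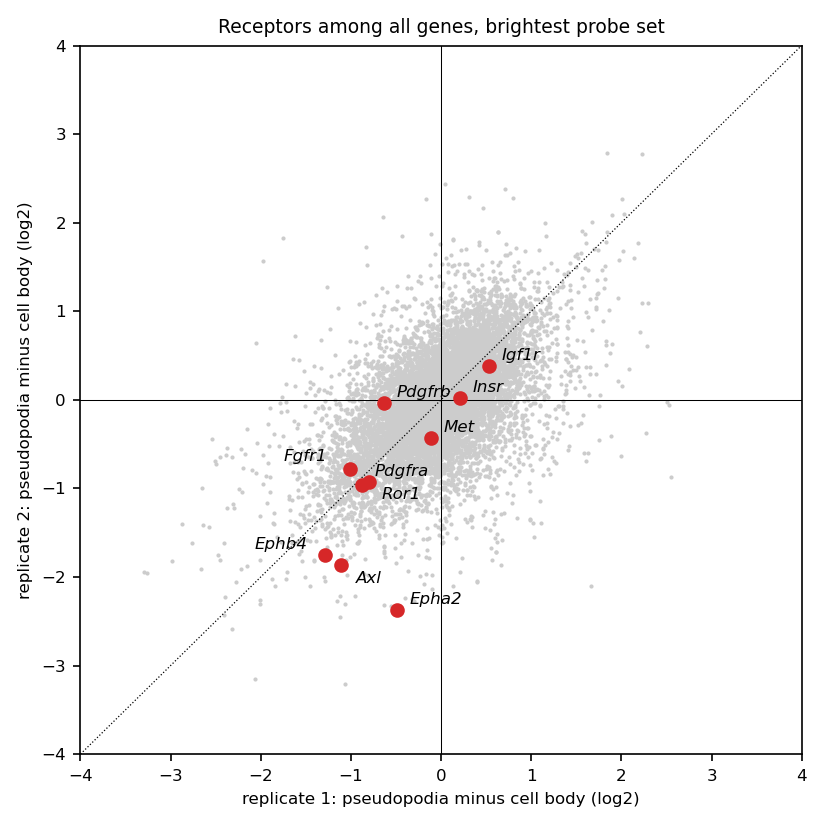
Difference between pseudopodia and cell body in replicate 1 (x axis) and replicate 2 (y axis), in log2 units, for all 10962 genes by their brightest probe set (grey) and the 10 receptors (red, named); the dotted line marks equal values. Epha2 lies furthest from it (-0.49 and -2.37), and 8 of the 10 receptors lie below it.

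The replicate numbers marked a shared scan day, and 8 of the 10 receptors had a lower difference in the replicate 2 pair. Among these, Igf1r (0.53 and 0.38 in replicates 1 and 2) and Insr (0.21 and 0.02) were positive in both pairs. In replicate 2 the actin 3′ to 5′ ratio of pseudopodia was 1.81 times that of cell bodies, against 1.14 times in replicate 1. For the Gapdh control it was 1.06 times, against 1.05 times. The part of these ratios in the lower replicate 2 differences was not tested. The median of the 10 was -0.72 in replicate 1 and -0.85 in replicate 2, against 0.027 and 0.006 over all genes. With the replicate number as a block, Ror1 and Epha2 also passed (adjusted p = 0.00603 and 0.0131 over genes). This brought the count to 6 of 10 lower and 0 higher, where 11.0% of all genes were called lower. Of the 21 probe sets, 10 were then lower and 0 higher, where 4087 of all 22519 were called in either direction. That fit leaves 1 residual degree of freedom, so its p-values rest mostly on the spread shared between genes. When instead a gene stood by the mean of all its kept probe sets, 3 receptors were called lower, namely Axl, Ephb4 and Pdgfrb, against 4.82% of all genes. Pdgfra and Fgfr1 then missed (adjusted p = 0.102 and 0.0504), and Igf1r turned to -0.14.

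The scaling moved the values of all genes together. Scaling on the spiked hybridization controls, whose signals were 1.17 and 1.36 times as high in pseudopodia, moved the median of all genes from 0.01 to -0.29 and that of the receptors to -1.20. After median centring they stood at 0.17 and -0.72, and after quantile normalization at 0.07 and -0.78. Relative to the median gene the median receptor lay between -0.91 and -0.85 under all 4 scalings. Axl and Ephb4 were called under each of them. Fgfr1 missed after median centring (adjusted p = 0.0616), and Pdgfra after median centring and after quantile normalization (adjusted p = 0.0612 and 0.0543). Insr turned to -0.15 on the hybridization controls.

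**Figure D4:**
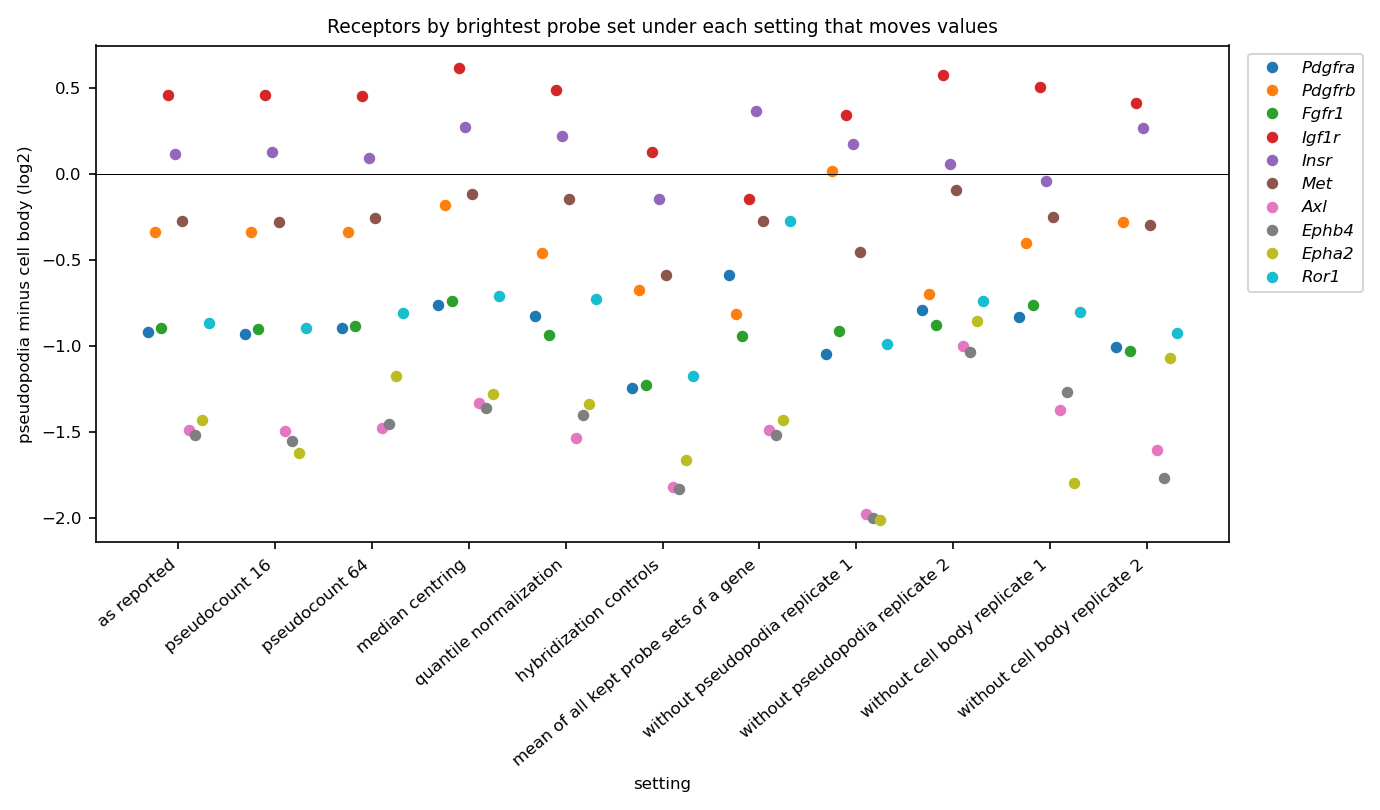
Difference of each receptor by its brightest probe set (or the mean of its kept probe sets, where named), pseudopodia minus cell body in log2 units, under the settings that change values; colours are genes. Axl, Ephb4 and Epha2 are the lowest under most settings, and Igf1r is the highest except where the probe sets of a gene are averaged, where it stands at -0.14.

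Other receptor tyrosine kinases, 20 of which passed the filter out of 47 named on the array, moved in both directions. Erbb3 and Erbb2, which pair with each other and with the epidermal growth factor receptor, were lower (-1.26 ± 0.27 and -1.11 ± 0.23, adjusted p = 0.0377 and 0.0352), as was Tyro3. Ddr2, a collagen receptor, was higher: its signals were 2185.8 and 1630.0 in cell bodies against 7311.8 and 4194.2 in pseudopodia. The difference was 1.54 ± 0.28 (adjusted p = 0.0279). Ddr2 is also among the RNAs known from fibroblast protrusions counted above, a list that is not independent of these samples. Egfr stood at -0.02 ± 0.24 and Ryk, a Wnt receptor, at -0.04 ± 0.30, and neither passed. Dimmer probe sets of Ddr2 and Tyro3 pointed the same way, at 1.89 and -1.68. The list had 3 lower and 1 higher, a median of -0.24 and 14 negative values of 20. With the 10 receptors it made 30 tested, 7 lower and 1 higher. With the replicate block, 6 of the 20 were lower and 2 higher. Beside the counts of this and the following lists, 3.44% of all genes were called lower and 1.82% higher. With the block 1202 and 958 of 10962 genes were.

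Surface receptors of other kinds that cross the membrane once were taken for comparison. Of 34 tested, 6 were lower and 0 higher, the median was -0.65, and in 26 both pseudopodia arrays lay below both cell body arrays. With the replicate block 22 of the 34 were lower and 0 higher. Lrp1, an endocytic receptor that also binds PDGF receptors, differed by -1.04 ± 0.17 (adjusted p = 0.0261). Itgb5, an integrin subunit, differed by -1.02 ± 0.17 (adjusted p = 0.0268), Acvr1, a receptor for bone morphogenetic proteins, by -1.08 ± 0.20 (adjusted p = 0.0282), and Notch2 by -1.12 ± 0.23 (adjusted p = 0.0357). The other probe sets of Acvr1 disagreed, at -1.92 and, on a dim one, 0.24, and those of Itgb5 ran from -1.17 to -0.54. As shares, 70.0% of the 10 receptors, 76.5% of these 34 and 30.0% of the other receptor tyrosine kinases had pseudopodia below cell bodies without overlap. The differences between these lists were not tested, and membrane proteins were not compared with cytosolic ones.

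**Figure D5:**
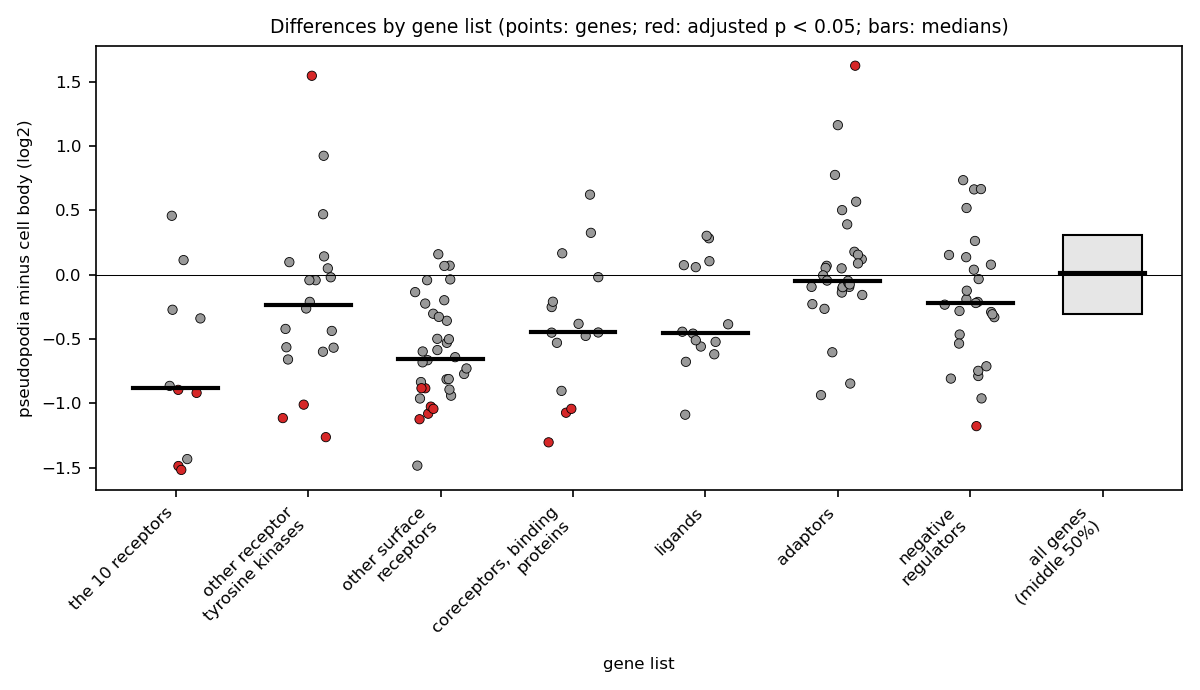
Differences between pseudopodia and cell body (log2) of the genes in each list, by their brightest probe set; red points have an adjusted p below 0.05 over all genes, black bars are medians, and the grey box spans the middle 50% of all genes tested. The medians run from -0.88 in the 10 receptors and -0.65 in other surface receptors to -0.05 in the adaptors.

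Coreceptors and binding proteins of the same growth factors held 3 lower and 0 higher of 15 tested, with a median of -0.45. Plxnb2, a plexin of the family that associates with Met, was lower (-1.30 ± 0.18, adjusted p = 0.0167). Gpc1, a glypican whose heparan sulfate chains bind FGFs, was lower too (-1.07 ± 0.18, adjusted p = 0.0268), and the other was Lrp1, which is in both lists. Cd44, a coreceptor of Met, stood at -0.53 (adjusted p = 0.104, or 0.0117 with the block). With the block the list had 6 lower and 1 higher. Of the ligands, 14 were tested and none was called, with a median of -0.45. Efna1, an ephrin that binds Epha2, came closest (-1.09 ± 0.26, adjusted p = 0.0534, or 0.000847 with the replicate block). Wnt5a stood at -0.68 ± 0.27 and Pdgfc, a ligand of Pdgfra, at -0.51 ± 0.21, and Efna5, an ephrin, at -0.44.

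The cytosolic adaptors that bind active receptors lay near the middle of all genes, with a median of -0.05. Where 1.82% of all genes were called higher and 3.44% lower, 1 of 29 adaptors was higher and 0 lower. That was Gab2, a docking protein for Ptpn11 and phosphoinositide 3-kinase. It read 371.9 and 596.9 in cell bodies against 1320.6 and 1671.4 in pseudopodia, at 1.62 ± 0.26 (adjusted p = 0.0249). Its dimmer probe sets stood at 1.08 and 1.41 and did not pass. Ptpn11, the phosphatase Shp2, stood at 0.77 ± 0.18 (adjusted p = 0.0506, or 0.00194 with the replicate block). Yes1, a kinase of the Src family, stood at 1.16 (adjusted p = 0.0879, or 0.0259 with the block). Irs1, the docking protein of Igf1r and Insr, stood at -0.85 ± 0.31 (adjusted p = 0.150, or 0.00434 with the block), and Grb2, the adaptor to Ras, at 0.05 ± 0.19. With the block 3 adaptors were higher and 1 lower, where 958 and 1202 of 10962 genes were.

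Negative regulators of the receptors had a median of -0.22. Of 27 tested, 1 was lower and 0 higher, where 3.44% of all genes were called lower and 1.82% higher. The 1 lower was Lrig1, itself a membrane protein that promotes the degradation of ErbB receptors and Met (-1.18 ± 0.21, adjusted p = 0.0276). It was lower on both bright probe sets (-1.18 and -1.12), and a dim one stood at 0.14. Its relative Lrig3 stood at -0.81 ± 0.20 (adjusted p = 0.0600, or 0.00856 with the block), and Ptprf, a receptor phosphatase, at -0.79 ± 0.22 (adjusted p = 0.0751, or 0.00412). Ptpn2, a non-receptor phosphatase, stood at 0.66 ± 0.20 (adjusted p = 0.0902, or 0.0172). With the block 4 regulators were lower and 2 higher, where 1202 and 958 of 10962 genes were.

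Over the 4 arrays, the genes whose pattern lay closest to Ephb4 were Eif2ak3, a kinase of the endoplasmic reticulum stress response, Axl, and P3h1, a collagen prolyl hydroxylase. Their Euclidean distances over log2 values, each centred on the gene's mean, were 0.16, 0.19 and 0.20. Eif2ak3 and P3h1 differed by -1.37 and -1.40 between the fractions. With 4 arrays in 2 groups, closeness of this kind holds little beyond the difference between fractions and the order within each.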

How the data were processed

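The data were 1 MAS5 signal, an intensity on a linear scale, per probe set and array (platform Mouse430_2, per the file headers), as the authors deposited it; MAS5 is named in the submitters' processing notes, and its version was not given in the sources used here. Values ran from 0.1 to 38292, and the 2% trimmed mean of each array was 250. Scaling every array to a common target makes differences relative to the fraction's total signal. Fixation in 0.3% formaldehyde and its reversal could affect RNA.

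Each array was brought to a trimmed mean of 500, and differences were tested as log2(signal + 32) with limma 3.58.1 in R 4.3.3 (lmFit, eBayes with a variance trend, two-sided) over the 22519 probe sets whose mean was at or above the median, and again over 10962 genes by their brightest probe set, with Benjamini-Hochberg adjustment over each. Names came from the platform annotation, with no genome. The test was checked on simulated data with 22519 probe sets, where 5.44% of calls were false. The members and lists were chosen with earlier results of these data known. Named genes were all members, up to 4 genes of each list by the size of their statistic, and the 3 genes nearest in pattern to the member with the largest difference; Egfr, Ryk, Grb2, Csf1r, Mertk and the dim receptors were chosen after their values were seen.

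Replicate numbers pair the arrays through a shared experiment code and scan day, per the file headers; replicate 2 minus replicate 1 differences in the 2 fractions correlated with r = 0.243 over probe sets. The alternatives were other pseudocounts, filters, scalings and variance models, the block, and leaving out each array.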

Additional observations from a re-analysis of the deposited data

How the results depend on the processing

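No alternative called a receptor higher. Counts of receptors called lower (4 as reported) were 0 without the filter on dim probe sets, 2 after median centring and 0 without the variance trend. The shares of all genes called lower in these settings were 0.209%, 1.98% and 0%, against 3.44% as reported. Without 1 array the count ran from 0 to 6: 0 without either cell body replicate, when no gene at all was called, and 6 and 5 without pseudopodia replicate 1 and 2; the remaining array of a fraction is then assumed to vary like the other fraction. Counts of probe sets called lower (3 as reported) were 1 without the filter, 7 on hybridization controls, 0 without the variance trend, 10 with the replicate block, and 0 to 9 without 1 array. The median of the receptors, -0.88, became -0.72 after median centring, -0.78 after quantile normalization, -1.20 on hybridization controls, -0.70 over the mean of each gene's probe sets, and -0.96 to -0.77 without 1 array. Of all genes, 377 were lower and 200 higher as reported, and 217 and 331 after median centring. They were 571 and 28 on hybridization controls, and 1202 and 958 with the replicate block. Of all 22519 probe sets, 990 were called in either direction as reported, 1560 on hybridization controls and 4087 with the block. Without the filter 176 of 45037 probe sets were called, and without the variance trend 0. When either pseudopodia array was left out, more of all genes were called lower than as reported. More of all probe sets were called then too. Signs turned in these values, none of them past the threshold as reported: on hybridization controls those of Igf1r 1428967_at (-0.16) and 1452108_at (-0.12), Insr 1434446_at (-0.15) and Pdgfra 1438946_at (-0.10), and Igf1r over the mean of its probe sets (-0.14). Without 1 array the ranges were -0.048 to 0.36 for Igf1r 1428967_at, -0.48 to 0.081 for 1426565_at, -0.21 to 0.52 for 1452108_at, -0.70 to 0.019 for Pdgfrb 1436970_a_at, -0.079 to 0.47 for Pdgfra 1438946_at, -0.51 to 1.14 for Ror1 1451014_at and -0.039 to 0.27 for Insr 1434446_at. The cause was not tested. Dim signals limit Insr, Epha2 and the second probe sets of Met, Axl and Ror1 most.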

Other observations

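The other receptor tyrosine kinases left 27 genes below the filter, and their brightest probe sets gave signals between 1.0 and 70.8. They included Kit, Ret, Tek, Ros1 and Alk, at no more than 32.5, 53.0, 45.2, 25.4 and 37.5 on any array, and 9 of the Eph receptors. Csf1r, the receptor of macrophage colony-stimulating factor, passed the filter and stood at 0.92 ± 0.44 (adjusted p = 0.256, or 0.0199 with the replicate block).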
